A study of Homo sapiens with 12 samples.

Results

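10 genes of nucleotide excision repair were followed in A549 cells with and without PARP3 and pyridostatin. The genes were XPC, XPA, DDB1, DDB2 and ERCC1 to ERCC6, taken by symbol, and all 10 were found among the 25365 names in the expression table. A gene was tested if it averaged 1 FPKM or more across all 12 libraries, which 11881 names did, among them 9 of the 10 and not ERCC6. FPKM is a read count scaled for transcript length and for the reads mapped in the library, so levels can be compared between genes of different length.

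A549 is a human lung adenocarcinoma line, and PARP3 is a poly(ADP-ribose) polymerase with a part in the repair of DNA breaks. Pyridostatin is a small molecule that binds and stabilises G-quadruplexes, the folded structures formed by guanine-rich DNA. The study asked whether transcription differed between wild-type and PARP3-/- cells with and without the drug. Poly(A) RNA was sequenced from 4 groups of 3 replicates each: wild-type and PARP3-/- cells, given either vehicle (DMSO) or 1 µM pyridostatin for 24 h. All 4 groups were A549 cells grown in the same medium. The PARP3-/- cells carried a Cas9-made deletion in the first exon and were grown out by serial dilution, so effects of the genotype and of the clone cannot be told apart. The methods call the 3 samples of a group biological replicates, and the labels do not say whether they were grown apart, so p-values measure the spread between these samples.

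Nucleotide excision repair removes lesions that bend the DNA helix, such as the photoproducts of ultraviolet light. Lesions in the whole genome are found by XPC and by the DDB1-DDB2 complex, whereas lesions that stall RNA polymerase II are found through ERCC6 (CSB). Both routes bring in TFIIH, whose helicases ERCC3 (XPB) and ERCC2 (XPD) open the DNA, and XPA, which checks the damage. The nucleases ERCC1-ERCC4 (XPF) and ERCC5 (XPG) then cut the strand on either side, and DNA polymerases and a ligase fill the gap. DDB2 and XPC are known targets of the transcription factor p53.

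The table was first checked against its labels. PARP3 stood at 3.83, 3.40 and 3.96 FPKM in the wild-type vehicle libraries and at 4.92, 4.07 and 4.25 FPKM in the libraries labelled PARP3-/- with vehicle. With pyridostatin it stood at 3.74, 3.57 and 4.05 FPKM in wild-type libraries and at 4.73, 4.71 and 4.30 FPKM in those labelled PARP3-/-. The transcript was thus not lower in the libraries labelled PARP3-/-, where it averaged 0.738 FPKM more (exact permutation test within treatment, two-sided, p = 0.005, the smallest that its 400 permutations allow, adjusted p = 0.010 over 2 comparisons). A value for the whole gene need not show a deletion within its first exon, so the check left the genotype labels untested. Every direction by genotype given here rests on those labels. The libraries held about 21700000 to 30800000 reads, as estimated from the smallest steps in the FPKM values, and the deepest was 1.42 times as deep as the shallowest. The second wild-type vehicle library stood apart. Its FPKM values summed to 563473, against 492839 to 525124 in the other libraries, and its deviation from the other wild-type vehicle libraries fell with transcript length (r = -0.45 across 10529 genes, which are not independent replicates). The epithelial keratins KRT8 (2766 to 3375 FPKM) and KRT18 (2207 to 3314 FPKM) were abundant in all 12 libraries. Of the other epithelial markers listed, KRT19 lay between 83.3 and 169 FPKM and CDH1 between 9.85 and 16.7 FPKM. EPCAM was low, between 0.879 and 2.36 FPKM. The fibroblast marker COL1A1 lay between 0.572 and 1.63 FPKM. The alveolar type II markers SFTPC, SFTPB and NKX2-1 and the leukocyte, endothelial and fibroblast markers PTPRC, PECAM1 and DCN stayed at or below 0.0995 FPKM, and the alveolar marker NAPSA lay between 0.431 and 0.973 FPKM.

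The 10 genes spanned a wide range of levels. DDB1 was the most abundant, with a mean of 73.1 FPKM over the 12 libraries, followed by ERCC1 at 63.7 FPKM and DDB2 at 57.6 FPKM. XPC averaged 21.8 FPKM and ERCC3 20.4 FPKM, and 30.3% and 31.9% of the tested genes were higher. XPA averaged 8.87 FPKM, ERCC2 6.68 FPKM, ERCC5 4.03 FPKM and ERCC4 3.49 FPKM. ERCC6 was the lowest at 0.651 FPKM. DDB1 varied least, with its highest library 1.12 times its lowest, whereas XPC and DDB2 varied 1.61-fold and 1.55-fold. Within each genotype the order of the means changed with pyridostatin, DDB2 passing ERCC1 and XPC passing ERCC3. The groups set side by side next differ in genotype as well as treatment. In wild-type vehicle cells ERCC1 (66.4 FPKM) stood above DDB2 (46.1 FPKM) and ERCC3 (20.4 FPKM) above XPC (17.1 FPKM), with no overlap between libraries. In PARP3-/- cells with pyridostatin DDB2 (66.0 FPKM) stood above ERCC1 (60.1 FPKM) and XPC (26.0 FPKM) above ERCC3 (19.8 FPKM), again with no overlap. Neighbours whose libraries overlapped were DDB1 and ERCC1 in wild-type vehicle cells, ERCC3 and XPC in PARP3-/- vehicle cells, and DDB2 and ERCC1 in wild-type cells with pyridostatin. ERCC5 and ERCC4 overlapped in 3 of the 4 groups, the exception being wild-type cells with pyridostatin.

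**Figure D1:**
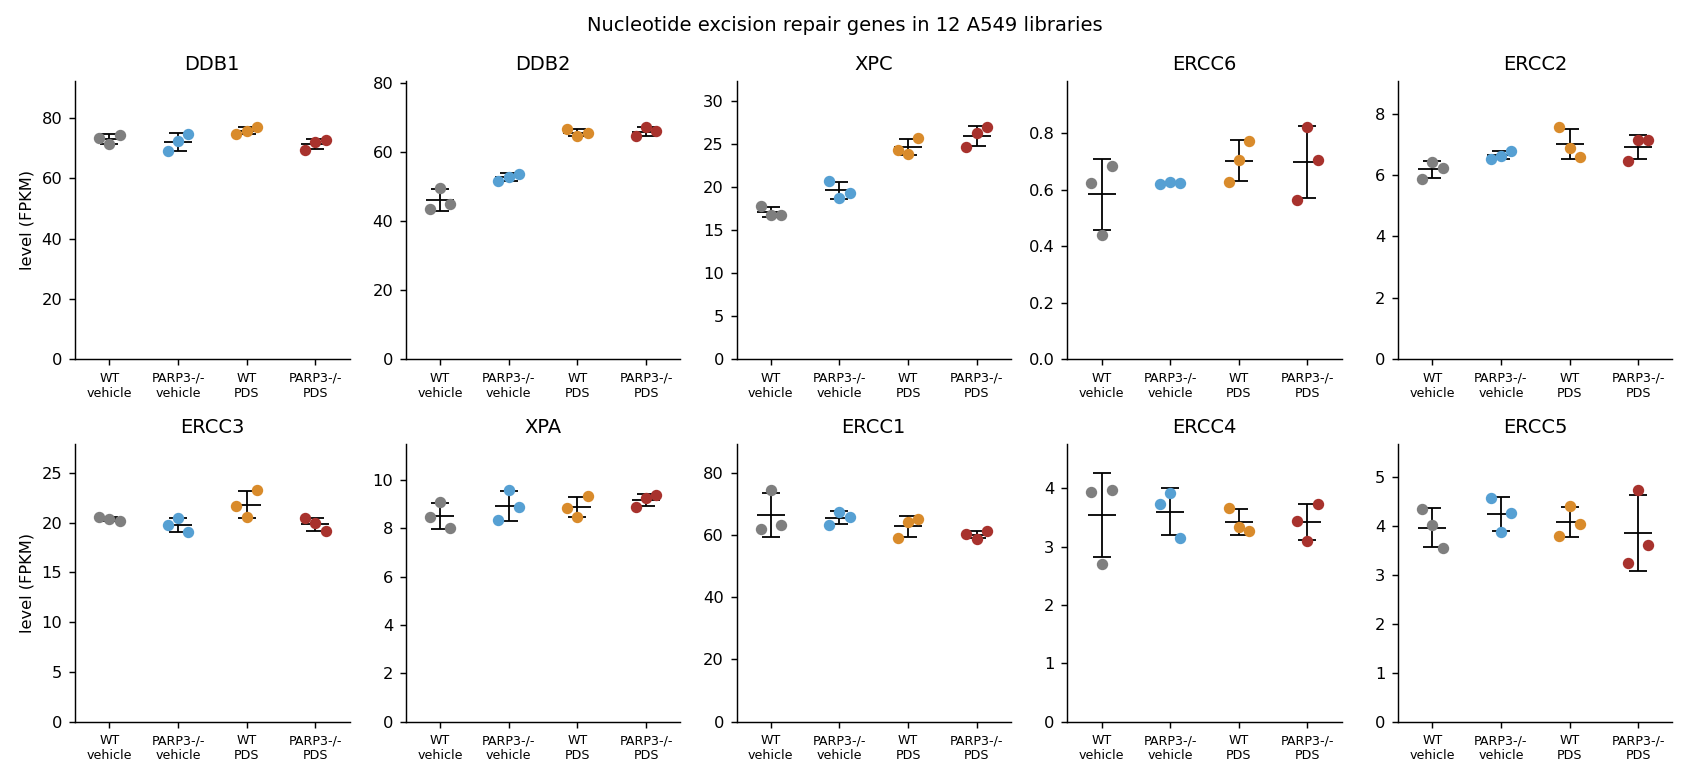
Levels of the 10 nucleotide excision repair genes in FPKM (vertical axes from 0) in each of the 12 libraries, by group. WT is wild type and PDS pyridostatin, points are libraries, and bars are mean ± SD (n = 3). DDB2 and XPC were higher in every pyridostatin library than in every vehicle library.

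DDB2 and XPC, both of which sense damage across the whole genome, were the members that changed. DDB2 (XPE) is the subunit that contacts the lesion in the DDB1-DDB2 complex. The DDB2 level was 43.5, 49.6 and 45.1 FPKM in the wild-type vehicle libraries and 51.6, 52.97 and 53.8 FPKM in the PARP3-/- vehicle libraries. With pyridostatin it was 66.7, 64.9 and 65.6 FPKM in wild-type libraries and 64.6, 67.2 and 66.0 FPKM in PARP3-/- libraries. All 6 pyridostatin libraries were therefore above all 6 vehicle libraries, and the vehicle libraries of the 2 genotypes did not overlap, while the pyridostatin libraries did.

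XPC binds the strand opposite the lesion and starts repair. The XPC level was 17.7, 16.8 and 16.8 FPKM in the wild-type vehicle libraries and 20.8, 18.7 and 19.3 FPKM in the PARP3-/- vehicle libraries. With pyridostatin it was 24.3, 23.8 and 25.7 FPKM in wild-type libraries and 24.6, 26.3 and 26.9 FPKM in PARP3-/- libraries. The groups were arranged as for DDB2: the treatments were separate, the genotypes were separate with vehicle, and they overlapped with pyridostatin. The share of all tested genes whose libraries were separate in these ways is not given here.

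The promoters of these genes are shown because they were the only members called in the comparisons. The sequences are RefSeq windows of build GRCh38.p14, in which 14 windows were found for the 10 genes. Each gives the 250 bases before a start site, with every GC box (GGGCGG on either strand) in capitals. The DDB2 stretch is chr11:47214724-47214973 on the plus strand and the XPC stretch is chr3:14178602-14178851 on the minus strand.
DDB2: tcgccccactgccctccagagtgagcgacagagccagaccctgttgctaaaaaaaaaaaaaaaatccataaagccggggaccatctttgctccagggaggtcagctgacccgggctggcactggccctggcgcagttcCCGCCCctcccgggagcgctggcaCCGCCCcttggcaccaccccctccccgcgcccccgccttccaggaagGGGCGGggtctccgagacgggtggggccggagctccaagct
XPC: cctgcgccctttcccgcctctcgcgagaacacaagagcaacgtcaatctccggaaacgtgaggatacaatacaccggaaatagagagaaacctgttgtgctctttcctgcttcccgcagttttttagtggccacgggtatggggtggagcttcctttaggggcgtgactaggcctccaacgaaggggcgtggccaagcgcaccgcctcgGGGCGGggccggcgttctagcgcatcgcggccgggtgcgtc
DDB2 had another window among the 14, chr11:47214204-47214503, with 0 p53 half-sites and 0 GC boxes. The window shown, 250 bases before and 50 after this start, was picked because it held a match to the p53 consensus. The match lay in the transcribed part, at bases 6 to 26 counted from the start (chr11:47214979-47214999). It consisted of 2 half-sites of 10 bases in capitals with a spacer of 1 base in lower case.
DDB2 p53 match: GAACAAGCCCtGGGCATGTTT
A full p53 match with a spacer of up to 13 bases was present in 10 of 35116 windows in all (0.0285%), and in 1 of the 14 windows of these genes. A single half-site, which each full match also holds, was found in 6.63% of all windows and in no window of the other 9 genes. GC boxes were found in 45.0% of all windows and in 9 of the 14, with 3 in the DDB2 window shown and 1 in the XPC window. Because the drug binds G-quadruplexes, a motif for them was searched too: 4 runs of 3 or more G separated by 1 to 7 bases, on either strand. It was found in 8778 of the 35116 windows and in none of the 14, and it can overlap a GC box. These are matches of letters in short windows, and binding was not measured.

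Both genes rose with pyridostatin in both genotypes. The changes were tested with limma, which fits a linear model to every gene and shares the estimate of the spread across genes, and p-values were adjusted over all genes tested (Benjamini-Hochberg). In wild-type cells the DDB2 mean rose from 46.1 ± 3.18 to 65.7 ± 0.919 FPKM (SD, n = 3), a ratio of 1.43, and the XPC mean rose from 17.1 ± 0.551 to 24.6 ± 0.960 FPKM, a ratio of 1.44. The log2 fold change of FPKM + 1, a scale that understates changes of low genes, was 0.50 for DDB2 (SE 0.045, 95% interval 0.40 to 0.61, limma adjusted p = 0.00021). For XPC it was 0.50 (SE 0.049, 95% interval 0.39 to 0.61, limma adjusted p = 0.000338). These 2 were the only members called, at an adjusted p under 0.05, of 9 tested. Over all genes tested 4.17% were called and 2.79% were called higher. The median log2 fold change of the 9 members was 0.05, against 0.0030 over all genes. In a bulk library, more cells with a transcript and more transcript per cell cannot be told apart.

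In PARP3-/- cells DDB2 rose from 52.8 ± 1.07 to 66.0 ± 1.32 FPKM and XPC from 19.6 ± 1.04 to 26.0 ± 1.18 FPKM, with ratios of 1.25 and 1.32. The log2 fold change was 0.32 for DDB2 (SE 0.045, 95% interval 0.22 to 0.42, limma adjusted p = 0.0030). For XPC it was 0.39 (SE 0.049, 95% interval 0.28 to 0.50, limma adjusted p = 0.00151). Again these were the only 2 of the 9 members called, beside 5.56% of all genes called and 3.05% called higher. Averaged over genotypes the log2 fold changes were 0.41 for DDB2 and 0.44 for XPC (limma adjusted p = 2.41e-05 and 2.46e-05). In that average 2 of 9 members were called, both higher, beside 13.9% of all genes called and 7.71% called higher. Of the cell type markers listed, the epithelial CDH1 was also called higher in the average (log2 fold change 0.17, limma adjusted p = 0.0233), and its part in these values was not tested. The other epithelial markers did not move together. EPCAM means went from 2.12 to 1.78 FPKM in wild-type and from 1.16 to 0.988 FPKM in PARP3-/- cells. KRT18 means also fell in both genotypes, KRT19 means rose slightly in both, and KRT8 means rose in wild-type cells and fell in PARP3-/- cells. The calls of DDB2 and XPC in these 3 comparisons held when any 1 of the 12 libraries was left out.

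**Figure D2:**
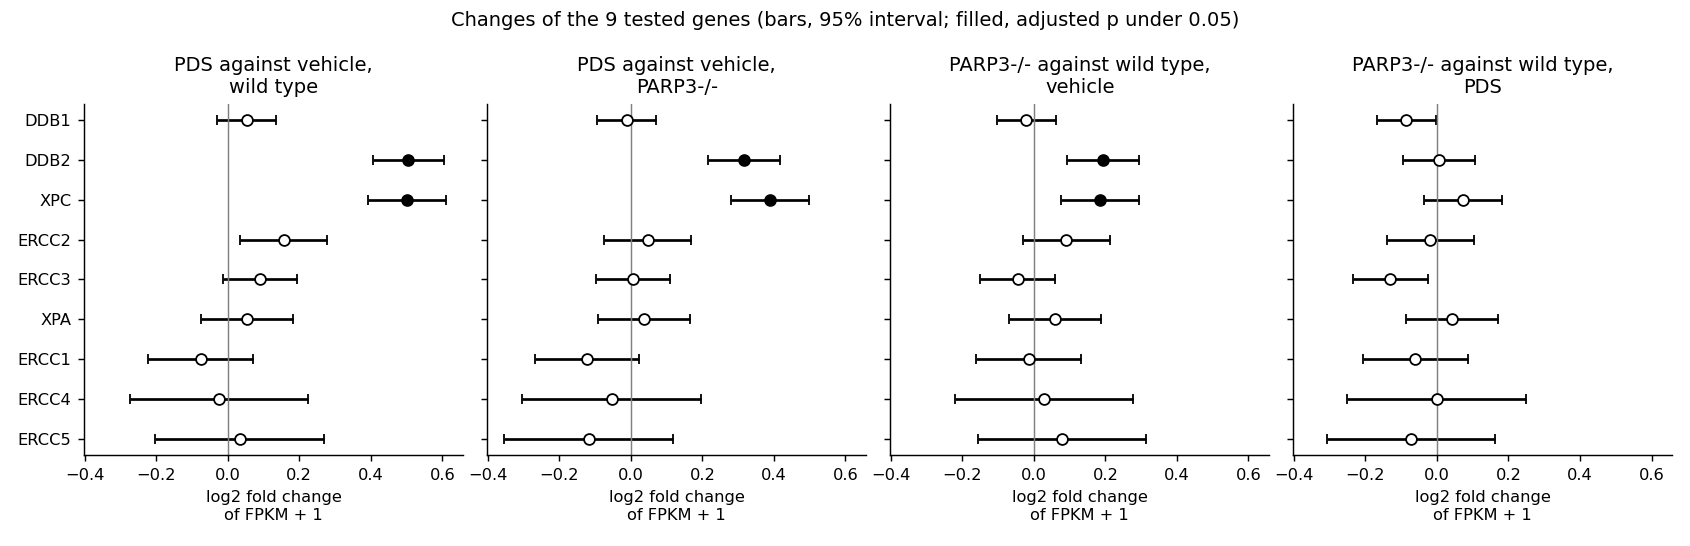
Log2 fold changes of FPKM + 1 (horizontal axes) for the 9 tested genes in 4 comparisons, with 95% intervals from limma. PDS is pyridostatin, and filled points have an adjusted p under 0.05. DDB2 and XPC lie at 0.32 to 0.50 for pyridostatin and at 0.19 for the genotype with vehicle, and every other point is open.

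DDB2 and XPC also stood higher in PARP3-/- than in wild-type cells with vehicle, by smaller amounts. The DDB2 ratio of means was 1.15 with a log2 fold change of 0.19 (SE 0.045, 95% interval 0.09 to 0.29, limma adjusted p = 0.0211). The XPC ratio was also 1.15, with a log2 fold change of 0.19 (SE 0.049, 95% interval 0.08 to 0.29, limma adjusted p = 0.0400). These 2 of 9 members compare with 9.41% of all genes called and 6.4% called higher. Both calls were near the threshold. Leaving out the third wild-type vehicle library took the adjusted p to 0.0732 for DDB2 and 0.112 for XPC, and leaving out the third PARP3-/- vehicle library took it to 0.0799 and 0.0857. 1 of the 2 calls was lost without the first or second wild-type vehicle library, without the first or second PARP3-/- vehicle library, or without the first wild-type or second PARP3-/- pyridostatin library. Neither gene was called with each library shifted to a common median (adjusted p = 0.111 for DDB2 and 0.124 for XPC) or in a fit of these 6 libraries alone (0.142 and 0.135).

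With pyridostatin the genotypes were not distinguished for any member. The log2 fold change of PARP3-/- against wild type was 0.01 for DDB2 (95% interval -0.10 to 0.11, limma adjusted p = 0.971) and 0.07 for XPC (95% interval -0.04 to 0.18, limma adjusted p = 0.42). No member was called by limma, beside 10.9% of all genes. Before adjustment 2 of 9 (DDB1 and ERCC3, both lower) had a limma p under 0.05, and the share of all genes there is not given here. Averaged over treatments XPC was called (log2 fold change 0.13, SE 0.035, limma adjusted p = 0.0252) and DDB2 was not (log2 fold change 0.10, 95% interval 0.03 to 0.17, limma adjusted p = 0.0531). That is 1 of 9 members, beside 19.1% of all genes called and 12.2% called higher. The XPC call was lost, with an adjusted p of up to 0.0649, without the third wild-type vehicle library, the first PARP3-/- vehicle library, the first or second wild-type pyridostatin library, the second PARP3-/- pyridostatin library or the third PARP3-/- pyridostatin library. The DDB2 value was called without the second wild-type vehicle library (adjusted p = 0.0015). Markers moved with the genotype too: KRT19 was higher in PARP3-/- cells (log2 fold change 0.85), as was the fibroblast marker COL1A1 (0.41, at 0.572 to 1.63 FPKM in all libraries), while EPCAM (-0.50), CDH1 (-0.47) and KRT18 (-0.24) were lower. Their part in the values of XPC and DDB2 was not tested.

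The response to pyridostatin itself was compared between genotypes with an interaction term. The DDB2 response was lower in PARP3-/- cells by 0.19 on the log2 scale (interaction -0.19, 95% interval -0.33 to -0.05), which missed the threshold after adjustment (unadjusted p = 0.0138, limma adjusted p = 0.999). For XPC the interaction was -0.11 (95% interval -0.27 to 0.04, limma adjusted p = 0.999). All 9 tested members had an interaction below 0, with a median of -0.08 against -0.0073 over all genes, but they share the same 12 libraries. No member and 0% of all genes were called by limma, with 1 member and 521 genes at an unadjusted p under 0.05. A larger threshold was applied as well, a log2 fold change beyond 1 together with the adjusted p. No member met it in any of the 7 comparisons. Over all genes it was met by 0.0505% for pyridostatin in wild-type cells and in the average over genotypes, by 0.0673% for pyridostatin in PARP3-/- cells, by 0.362% for the genotype with vehicle, by 0.396% for the genotype with pyridostatin and in the average over treatments, and by 0% for the interaction.

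The partners of DDB2 and XPC were not called in the pyridostatin comparisons. DDB1, which joins DDB2 to the CUL4 ubiquitin ligase, stood at 73.1 ± 1.63, 72.1 ± 2.94, 75.9 ± 1.11 and 71.5 ± 1.68 FPKM in wild-type vehicle, PARP3-/- vehicle, wild-type pyridostatin and PARP3-/- pyridostatin cells. Its log2 fold change with pyridostatin was 0.05 in wild-type cells (95% interval -0.03 to 0.13) and -0.01 in PARP3-/- cells (95% interval -0.09 to 0.07), neither called. The ratio of DDB2 to DDB1 within a library was 0.631 ± 0.0567 in wild-type vehicle cells and 0.733 ± 0.0151 in PARP3-/- vehicle cells. With pyridostatin it was 0.866 ± 0.0220 and 0.923 ± 0.0130. These ratios did not overlap between any of the groups, and they are given without a test.

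RAD23B and CETN2 form a complex with XPC and hold it in a stable form. RAD23B went from 73.4 ± 3.36 to 68.6 ± 3.96 FPKM with pyridostatin in wild-type cells and from 69.7 ± 2.39 to 66.8 ± 1.22 FPKM in PARP3-/- cells. Its mean log2 fold change of -0.08 was not called (95% interval -0.155 to -0.0021, limma adjusted p = 0.163), nor was that of CETN2 (-0.03, limma adjusted p = 0.661). The ratio of XPC to RAD23B was 0.233 ± 0.00735 and 0.282 ± 0.0208 in vehicle cells of the wild-type and PARP3-/- genotypes, and 0.360 ± 0.0323 and 0.389 ± 0.0207 with pyridostatin. The lowest pyridostatin library (0.326) was above every vehicle library.

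**Figure D3:**
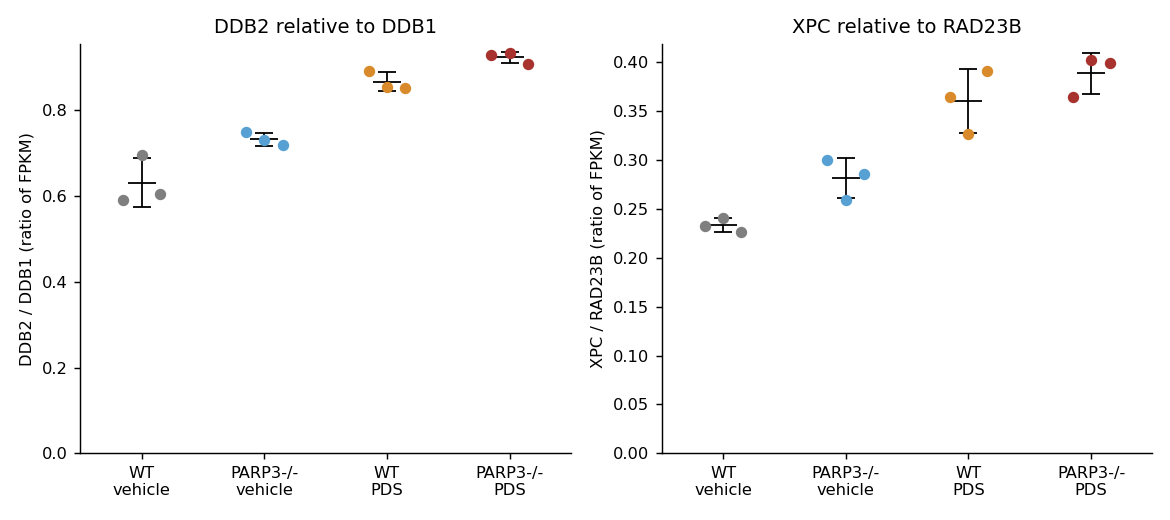
Ratio of DDB2 to DDB1 (left) and of XPC to RAD23B (right), each computed from the FPKM values of 1 library, by group. Points are libraries and bars mean ± SD (n = 3), with both axes from 0. The mean ratio of DDB2 to DDB1 went from 0.631 to 0.866 in wild-type cells (WT) with pyridostatin (PDS) and from 0.733 to 0.923 in PARP3-/- cells.

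Neither helicase of TFIIH was called in any of the 7 comparisons. ERCC2, the helicase that checks the opened strand, was at 5.88, 6.43 and 6.22 FPKM in wild-type vehicle libraries and at 7.55, 6.88 and 6.59 FPKM in wild-type pyridostatin libraries, which did not overlap. Its log2 fold change was 0.16 in wild-type cells (95% interval 0.04 to 0.28, limma adjusted p = 0.144). In PARP3-/- cells the levels were 6.53, 6.62 and 6.77 FPKM with vehicle and 6.45, 7.12 and 7.13 FPKM with pyridostatin, and they overlapped (log2 fold change 0.05, 95% interval -0.07 to 0.17). The share of all tested genes whose libraries were separate, as those of ERCC2 were in wild-type cells, is not given here. ERCC3, which pries the strands apart near the lesion, was at 20.4 ± 0.193 FPKM in wild-type vehicle cells, 19.7 ± 0.690 FPKM in PARP3-/- vehicle cells, 21.8 ± 1.38 FPKM in wild-type cells with pyridostatin and 19.8 ± 0.678 FPKM in PARP3-/- cells with pyridostatin. Between the pyridostatin groups its log2 fold change by genotype was -0.13 (95% interval -0.23 to -0.03, limma adjusted p = 0.115). The second wild-type pyridostatin library was the lowest of its group at 20.5 FPKM, and without it the ERCC3 value was -0.17 and was called (limma adjusted p = 0.0476).

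XPA and the incision nucleases showed no call in any comparison. XPA, the scaffold that holds the repair complex together, lay between 8.02 and 9.58 FPKM in all 12 libraries, and its log2 fold changes in the 4 simple comparisons ran from 0.04 to 0.06. ERCC1, which positions the XPF nuclease, lay between 58.8 and 74.4 FPKM. Its mean log2 fold change with pyridostatin was -0.10 (95% interval -0.20 to 0.00, limma adjusted p = 0.19). The highest value was in the second wild-type vehicle library, 74.4 FPKM against 61.8 and 63.1 FPKM in the other libraries of the group. That library also held the lowest ERCC4 value, 2.70 FPKM against 3.93 and 3.97 FPKM, so the ratio of ERCC1 to ERCC4 reached 27.5 there and was 15.7 to 21.0 in the other 11 libraries.

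ERCC4, the catalytic partner of ERCC1, had group means of 3.42 to 3.59 FPKM, and ERCC5, which cuts the other side of the lesion, had group means of 3.86 to 4.24 FPKM. Their intervals were the widest of the members. With pyridostatin in wild-type cells the ERCC4 interval ran from -0.27 to 0.22, and in PARP3-/- cells the ERCC5 interval ran from -0.35 to 0.12. The transcript BIVM-ERCC5, which joins ERCC5 to its upstream neighbour and shares its exons, was listed on its own at 2.33 to 4.75 FPKM, so the split of reads between both entries is uncertain. ERCC1 overlaps CD3EAP on the opposite strand, which was at 17.2 to 21.0 FPKM. The library kit keeps strand, but the strand setting of the quantification is not given in the sources used here.

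ERCC6, the factor that senses stalled RNA polymerase II, was too low for the fit across genes. Its level was 0.624, 0.441 and 0.683 FPKM in wild-type vehicle libraries, 0.618, 0.627 and 0.624 FPKM in PARP3-/- vehicle libraries, 0.628, 0.704 and 0.773 FPKM in wild-type pyridostatin libraries and 0.565, 0.820 and 0.705 FPKM in PARP3-/- pyridostatin libraries. The groups overlapped. Pyridostatin libraries averaged 0.0965 FPKM more than vehicle libraries (exact permutation test within genotype, two-sided, p = 0.10, adjusted p = 0.20 over 2 comparisons). PARP3-/- libraries averaged 0.0174 FPKM more than wild-type ones (exact permutation test within treatment, two-sided, p = 0.815, adjusted p = 0.815). The 400 permutations of each test allow a p of 0.005 at the smallest. The fusion transcript ERCC6-PGBD3, which shares the 5′ exons of ERCC6, was listed on its own. It stood at 1.57 ± 0.247 and 2.07 ± 0.111 FPKM in wild-type cells with vehicle and pyridostatin, and at 1.42 ± 0.0654 and 1.70 ± 0.0707 FPKM in PARP3-/- cells. Its mean log2 fold change with pyridostatin was 0.21 (95% interval 0.10 to 0.32, limma adjusted p = 0.0212). Reads from the shared exons can be split between both entries in more than 1 way.

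The other genes of the pathway were taken from a list of 40 names, of which 39 were in the table and 38 were tested. GTF2H4, a subunit of TFIIH, was listed at 0 in every library. Whether its reads were lost in the mapping or the annotation was not tested. Averaged over genotypes, 13 of the 38 were called lower with pyridostatin and none was called higher, beside 6.24% of all genes called lower. The median log2 fold change of the 38 was -0.06. Of the 18 genes of gap filling, which DNA replication also uses, 9 were called lower. So were all 3 subunits of the single-strand binding protein RPA (RPA1, RPA2 and RPA3). None of the 8 tested genes grouped with TFIIH or of the 3 of the transcription-coupled route was called. The falls with the greatest size were those of RFC4 and RFC3, subunits of the clamp loader, of POLE2, a subunit of DNA polymerase epsilon, and of RFC2, again of the clamp loader. RFC4 had a log2 fold change of -0.31, POLE2 of -0.28, RFC3 of -0.22 and RFC2 of -0.19 (limma adjusted p = 0.00402, 0.00153, 0.00878 and 0.00812).

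Within PARP3-/- cells alone 9 of the 38 pathway genes were called lower with pyridostatin, beside 2.52% of all genes. They were led by RFC4 (37.9 ± 2.15 to 29.4 ± 2.67 FPKM, log2 fold change -0.36), POLE2 (12.3 ± 0.230 to 9.52 ± 0.710 FPKM, log2 fold change -0.34), the polymerase delta subunit POLD3 (-0.22) and RFC2 (-0.21). Leaving out any 1 of the 6 PARP3-/- libraries gave 1 to 3 calls, the fewest without the third pyridostatin library. Within wild-type cells 0 of 38 were called by limma, with 9 at an unadjusted p under 0.05, and the interaction called none (2 unadjusted), so a difference between the genotypes was not shown. PCNA, the clamp itself and also a p53 target, was not called (log2 fold change 0.06, limma adjusted p = 0.16). By genotype none of the 38 was called with vehicle (2 unadjusted) or with pyridostatin (4 unadjusted). These unadjusted counts stand without the share of all genes beside them, so whether they exceed that share is not shown. Averaged over treatments 2 of 38 were called lower in PARP3-/- cells, GTF2H2 (-0.14) among them, beside 6.95% of all genes. GTF2H2 has near-identical copies in the genome, so its value is uncertain.

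**Figure D4:**
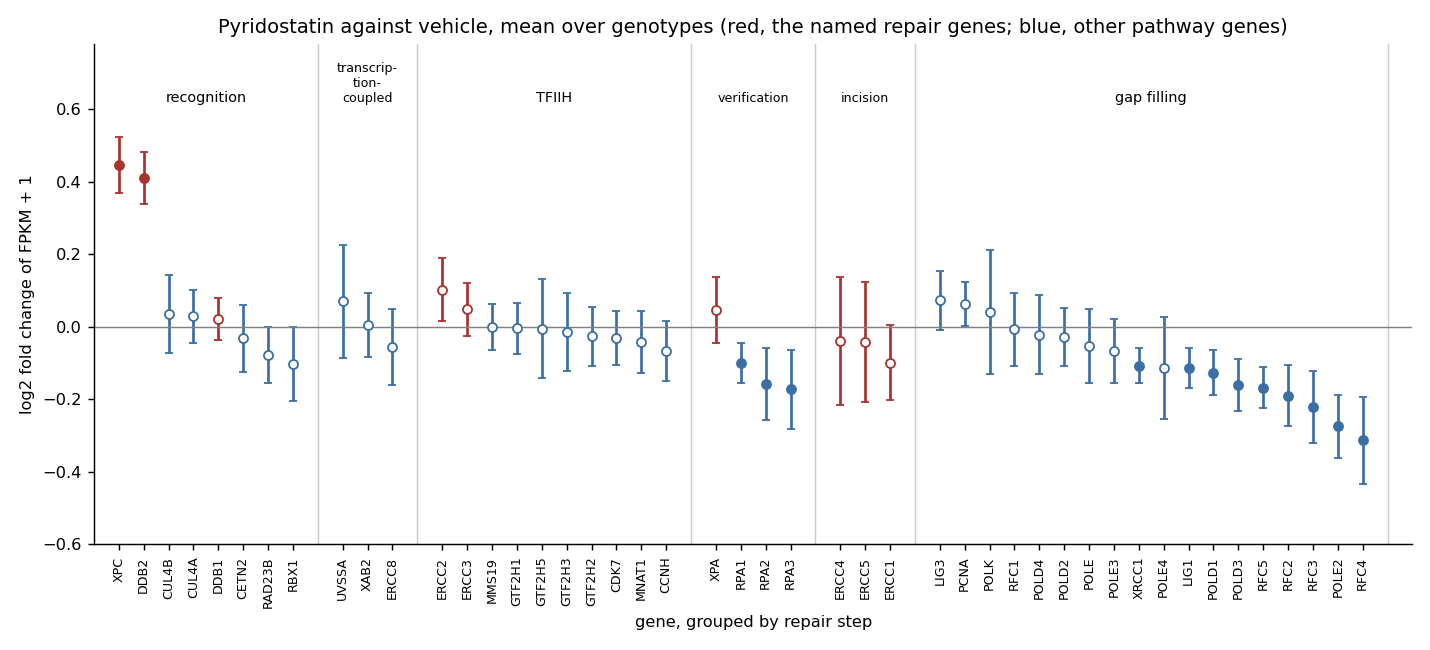
Log2 fold change of FPKM + 1 with pyridostatin (vertical axis, mean over genotypes, bars 95% intervals) for the 9 tested members (red) and the other pathway genes shown (blue), grouped by repair step. Filled points have an adjusted p under 0.05. XPC (0.44) and DDB2 (0.41) are the only filled points above 0, and 9 of 18 gap filling genes are filled below it.

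A list of 24 other known p53 targets gives the setting of DDB2 and XPC. The list was chosen with earlier results of these data known, so its counts are a description. With pyridostatin 21 of the 24 were called higher in wild-type cells and 24 in PARP3-/- cells, beside 2.79% and 3.05% of all genes. The medians were 0.69 and 0.65 on the log2 scale. All 24 had a log2 fold change above 0 in both genotypes, the lowest being 0.19 in wild-type and 0.24 in PARP3-/- cells. DDB2 and XPC lay in the lower part of that range: 16 of the 24 had a log2 fold change above both of them in wild-type cells, and 19 in PARP3-/- cells. CDKN1A, which arrests the cell cycle, had a mean log2 fold change of 1.10, and MDM2, which degrades p53, one of 0.84. By genotype 7 of the 24 were called higher in PARP3-/- cells with vehicle, beside 6.4% of all genes, and 4 with pyridostatin, beside 7.07%.

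The genes whose levels ran most like DDB2 over the 12 libraries were LYNX1 (Pearson r = 0.975), AEN (0.973), FDXR (0.973), HNRNPL (0.972) and CDKN1A (0.971). For XPC they were PLK2 (0.986), PLXNB2 (0.980), ACER2 (0.970), EDA2R (0.970) and CXorf23 (0.969). AEN, FDXR, CDKN1A and PLK2 are on the p53 list. DDB2 and XPC had an r of 0.944 with each other, and XPC held rank 34 among the genes most like DDB2. These values describe 12 libraries that share 4 groups, and they carry no test.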

How the data were processed

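The authors sequenced poly(A) RNA (stranded kit, single-end reads) and deposited 1 table of FPKM values for 12 libraries. Their processing notes name bcl2fastq 2.16, STAR 2.5 and Cufflinks and the builds hg19 and mm9, the human one applying to these cells. The strand setting and annotation are not given in the sources used here. FPKM are not counts, so the count test of the study could not be run. Here log2(FPKM + 1) of names with a mean of at least 1 FPKM was fitted with limma 3.58.1 (R 4.3.3; 4 groups, 12 libraries, eBayes with a trend), tested on simulated data first, and adjusted by the Benjamini-Hochberg method. A call is an adjusted p under 0.05. Depth was estimated with GENCODE 29 transcript lengths from 95 genes and is approximate. Promoters came from RefSeq, GRCh38.p14, and no coordinate was carried between builds. Members and gene lists were chosen with earlier results of these data known. All members, called pathway genes (at most 4 for each comparison, by size), CDKN1A, MDM2, PARP3, overlapping transcripts and the 5 genes most like DDB2 and XPC were named, and a few genes within the counts are not reported here. Alternatives were another pseudocount, filters, scalings, variance settings, a replicate term, fewer groups and each library left out.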

Additional observations from a re-analysis of the deposited data

How the results depend on the processing

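The calls of DDB2 and XPC for pyridostatin, in either genotype and in the average, held under each of the 20 alternatives run for the single genotypes and the 19 for the average. DDB2 ranged from 0.47 to 0.56 in wild-type and from 0.30 to 0.35 in PARP3-/- cells, and XPC from 0.47 to 0.53 and from 0.36 to 0.43. The numbers of members called by genotype moved. With vehicle 2 were called, against 1 without a filter on the mean, with quantile normalization or with the replicate block, 0 with a common median or a fit of the 6 libraries alone, and 0 to 2 when 1 library was left out. With pyridostatin 0 were called, against 0 to 1 when 1 library was left out. In the average over treatments 1 was called, against 2 with quantile normalization, 2 with a common median (ERCC3 and DDB1, both lower, in place of XPC) and 0 to 2 when 1 library was left out.

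For the other pathway genes, pyridostatin in wild-type cells gave 0 calls, against 1 with quantile normalization, 3 with a common median and 0 to 2 with a library left out, and in PARP3-/- cells gave 9, against 1 to 12 with a library left out. The genotype with vehicle gave 0, against 1 without a filter, 1 with quantile normalization and 0 to 3 with a library left out. With pyridostatin it gave 0, against 1 with quantile normalization, a common median, the replicate block or the 6 libraries alone, and 0 to 2 with a library left out. The average over treatments gave 2, against 1 with a pseudocount of 0.1, a minimum mean of 5 FPKM or the replicate block, and 0 to 5 with a library left out. The average over genotypes gave 13, against 9 to 14 with a library left out. The DDB2 difference by genotype with pyridostatin turned from 0.01 to -0.0222 with a common median, and ranged from -0.0087 to 0.0198 with a library left out, uncalled throughout; it was below 0 without the second wild-type (-0.0043) or the second PARP3-/- pyridostatin library. The cause of these changes was not tested.

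The replicate numbers were not taken to pair the libraries, since the correlations of same-numbered deviations ran from -0.12 to 0.22 and were not above 0.1 in every pair of any comparison. As a hint from the data and not the design, 2 and 5 of 6 libraries correlated best with their own number for pyridostatin in wild-type and PARP3-/- cells, and 6 and 2 of 6 for the genotype with vehicle and with pyridostatin. The replicate block changed no call of a member other than that of XPC for the genotype with vehicle (adjusted p = 0.0607). Depth limits ERCC6 most, with about 90 to 173 reads in a library if its longest coding transcript is used, against about 1480 to 2810 for XPC.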
